A study of Drosophila melanogaster with 12 samples.

Results

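The subject is a set of 52 transcripts, of 16637 measured, that were lower after RNAi against CP190 than after control RNAi at every time examined. Kc cells, a Drosophila melanogaster line of embryonic origin, received RNAi against CP190 or, in the control arm, against beta-galactosidase. Both arms were collected untreated (0 h) or after 3 or 48 h of the steroid hormone 20-hydroxyecdysone (20HE), with 2 biological replicates in each of the 6 groups. Single-colour arrays gave 1 intensity per transcript and sample, on a linear scale. No allele or transgene is named in the labels, and both arms carried an RNAi treatment, so the comparison is between RNAi targets and not with untreated cells.

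CP190 is a zinc finger protein that is recruited to insulators, the DNA elements that shape chromatin contacts and limit the reach of enhancers, by DNA-binding factors such as CTCF, Su(Hw) and BEAF-32. It also sits at many active promoters. 20HE acts through the nuclear receptor EcR with its partner Usp, and in Kc cells it changes the transcription of early and late response genes.

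The transcripts were chosen on the data described here. For each one, the knockdown difference was taken as the mean log2 intensity of the 2 CP190 RNAi arrays minus that of the 2 control RNAi arrays at the same hour. A difference of -0.5 or lower was found for 222 transcripts at 0 h, 171 at 3 h and 266 at 48 h. At 0 and 3 h together it was found for 117, and at all 3 times for 65. All 65 also had a highest group mean more than 1 log2 unit above the random-sequence row, an array control with no Drosophila target, whose mean intensity was 418. Limits on the hormone change averaged over both arms (within 0.4 at 3 h and within 1.5 at 48 h) left out 13 of the 65, all of them by the 3 h limit and 2 also by the 48 h limit. The mirrored rule, with a difference of at least 0.5 upward, chose 125 transcripts. The knockdown differences are therefore a description of the selection, and where counts of model calls are given for them, nothing is read from those counts.

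The last transcript inside the limit was FBtr0082151, with -0.94 at 0 h, -0.50 at 3 h and -0.89 at 48 h, followed by FBtr0082067 with -0.87, -0.72 and -0.51. The first ones outside it were FBtr0070681, whose weakest difference was -0.49998 (3 h), and FBtr0088632, at -0.49 (48 h). The values on either side of the limit were adjacent.

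The deposited table names transcripts by FlyBase identifier only. The RefSeq gene table held 44 of the array's identifiers, and 0 of the 52 members were among them. The members are therefore given by identifier, and their genes, roles, positions and sequences were not analysed here. The same holds for Cp190 itself, so the depletion of the targeted RNA was not analysed here, and for 46 genes of insulator, ecdysone and cell type marker lists, of which 0 could be looked up. The identity of the cells was not checked against markers for that reason. The median intensity of an array was 1136 to 1227, and its random-sequence row was 413 to 425. The intensity of a transcript depends on its probes, so levels of different transcripts are listed and not compared as abundances.

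In control RNAi cells the members covered a wide span of levels. Averaged over the 3 control groups, their intensities ran from 833 to 20765 with a median of 3095, beside a median of 1187 over all transcripts. The rule required a minimum level and a fall at every time, so nothing is read from the higher median. After CP190 RNAi the median member stood at 54.9% of its control level at 0 h (range 21.0 to 69.1%), at 56.6% at 3 h (19.6 to 70.7%) and at 54.9% at 48 h (22.5 to 70.0%). These are measured values. They include 10 members with a CP190 array within 1.5-fold of the random-sequence row, for which only bounds can be given. Less RNA per cell and a smaller share of cells that express a transcript cannot be told apart in such bulk samples.

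On the log2 scale the median knockdown difference was -0.86 at 0 h, -0.82 at 3 h and -0.87 at 48 h. Over all 16637 transcripts the corresponding medians were -0.0094, -0.019 and -0.0067. A fall of 1 log2 unit or more was seen for 20 members at 0 h, 19 at 3 h and 23 at 48 h. Over all 16637 transcripts it was seen for 44, 34 and 75. The rule used these differences, so the member counts describe the selection. The linear model over all transcripts (limma, 6 group means, Benjamini-Hochberg adjusted p under 0.05) called 52 of the 52 lower at 0 h, where 2.89% of all transcripts were called lower. It called 49 lower at 3 h (1.88% of all transcripts) and 47 at 48 h (2.02%). Over all transcripts the 3 h calls were 721 higher and 312 lower, or 622 and 473 with each array centred on its median, which called 50 members lower. With the replicate number as a block it called 52 at each time, where 7.72, 5.22 and 4.53% of all transcripts were called lower. Because the rule used these contrasts, nothing is read from the counts. The 48 h count fell when any single array of the control 48 h or CP190 48 h group was left out. The count of all transcripts called lower fell with it. Such a fit leaves 1 array in that group.

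**Figure D1:**
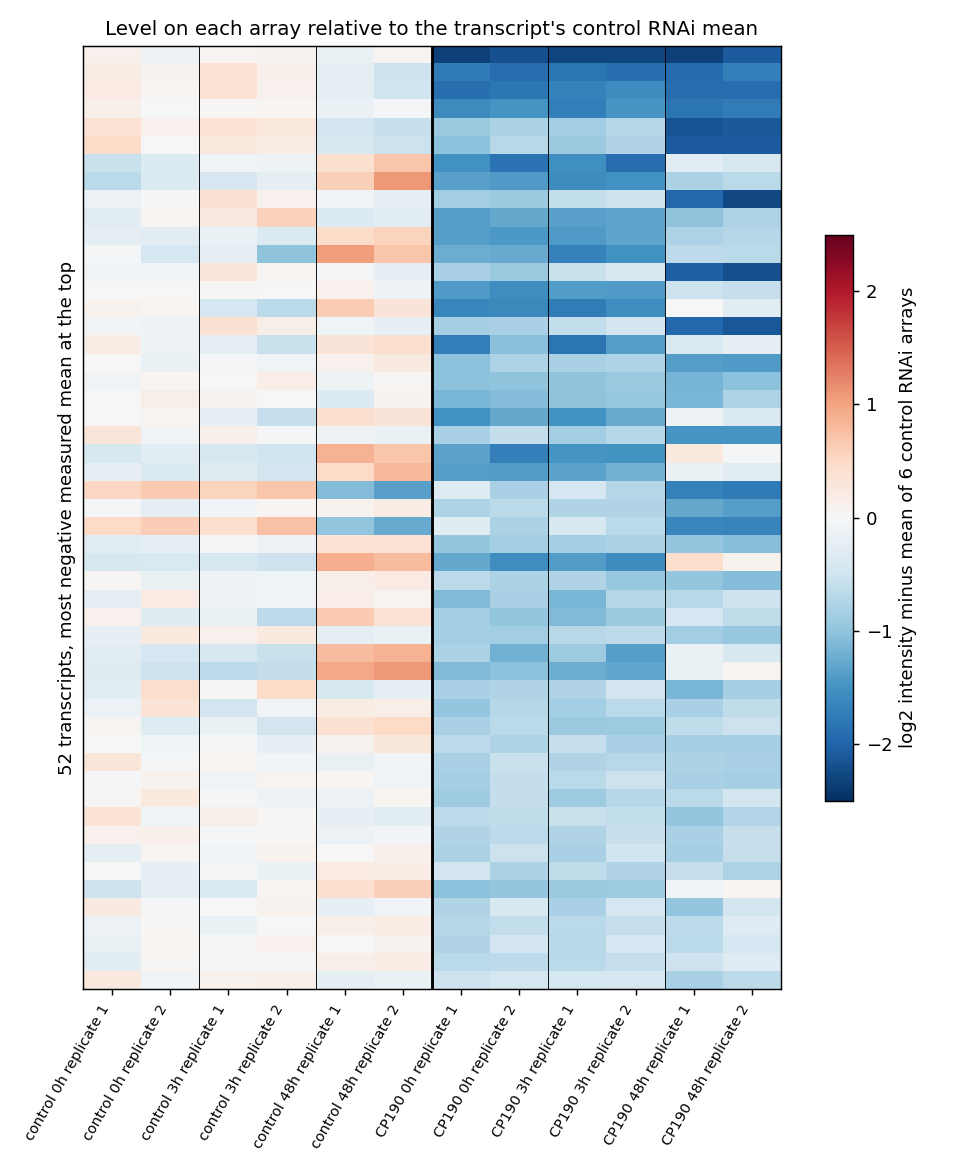
Log2 intensity of each of the 52 transcripts (rows, ordered by measured mean knockdown difference) on each of the 12 arrays (columns), relative to the transcript's mean over the 6 control RNAi arrays. Blue is lower and red higher, and the colour scale ends at 2.5 log2 units either way. The CP190 columns are mostly blue at all times, and some rows shift in both arms at 48 h.

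The rule used the means of these same arrays, so the values by replicate are a description and nothing is read from them. For 52 of the 52 transcripts, both CP190 RNAi arrays lay below both control arrays at each of the 3 times; the share of all transcripts with that order was 23.9% at 0 h, 26.1% at 3 h, 24.3% at 48 h and 7.24% at all 3. Taken within replicate numbers, the difference was at or below -0.5 at all times for 46 members in replicate 1 (0.421% of all transcripts) and for 40 in replicate 2 (0.355%). It was so in both replicates for 34 members. Averaged over the times, the fall was larger in replicate 1 for 34 members and larger in replicate 2 for 18. The median was -0.92 in replicate 1 and -0.93 in replicate 2.

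The rule was also applied to the arrays of 1 replicate number at a time, which gives lists that differ from the 52 but overlap with them. The values that follow are a description, and nothing is read from them. The shares beside them are over all transcripts and are not matched for level. On the replicate 1 arrays alone it chose 57 transcripts, of which 46 were members. In replicate 2, 56 of the 57 were below 0 at all 3 times, against 22% of all transcripts, and 35 were at or below -0.5, against 0.355%. Their median difference over the times was -0.87 in the replicate that chose them and -0.90 in the other. Applied to the replicate 2 arrays alone, the rule chose 43, of which 39 were members. Of the 43, 42 were below 0 at all times in replicate 1 (26.6% of all transcripts) and 33 at or below -0.5 (0.421%). The lists shared 33 transcripts, all of them members, which is 57.9% of the first and 76.7% of the second.

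**Figure D2:**
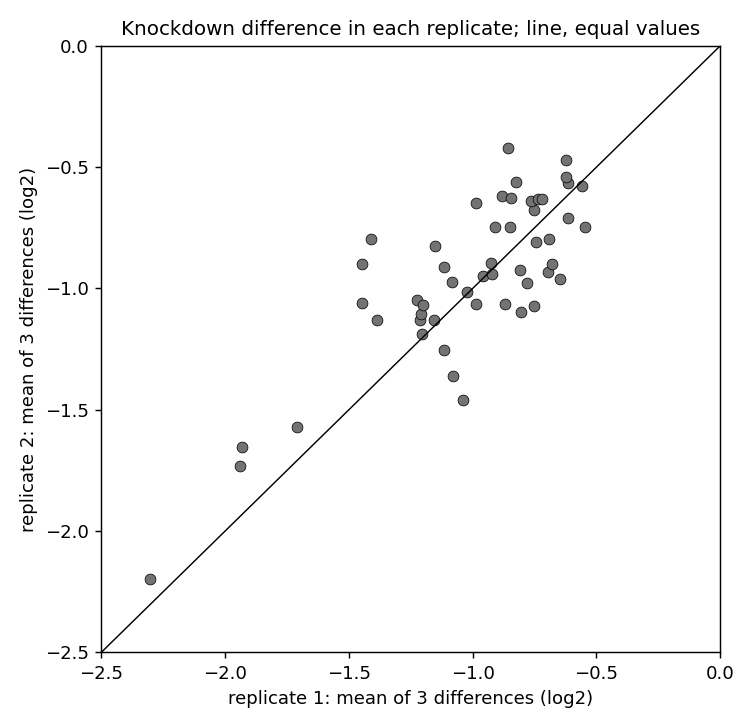
Knockdown difference averaged over 0, 3 and 48 h for each of the 52 transcripts, in replicate 1 (horizontal axis, log2) and replicate 2 (vertical axis, log2); the line marks equal values. All points lie below 0 on both axes, and FBtr0082408 lies farthest from the line, at -1.41 in replicate 1 and -0.80 in replicate 2.

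FBtr0086519 had the most negative measured difference at every time. FBtr0081747 and FBtr0081748, for which only bounds can be given, are not ranked against it. Its control intensities were 8735 and 7428 at 0 h, 8369 and 8596 at 3 h, and 7229 and 8556 at 48 h, for replicates 1 and 2. In CP190 RNAi cells they were 1617 and 1775, then 1667 and 1662, then 1623 and 1922. All 6 CP190 values lie below all 6 control values, and the log2 hormone changes in the arms ran from -0.03 to 0.07. The knockdown differences were -2.25, -2.35 and -2.15 (SE 0.11 each) at 0, 3 and 48 h, so the transcript stood at 21.0, 19.6 and 22.5% of control.

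FBtr0083126 had the highest mean control intensity of the members. It measured 22743 and 20631 there at 0 h, 21167 and 21549 at 3 h, and 18432 and 20320 at 48 h. With CP190 RNAi it measured 6856 and 7472, 6305 and 7426, and 5889 and 6180. As with FBtr0086519, the arms are separated by a near constant step, here -1.60, -1.64 and -1.68 (SE 0.099 each).

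FBtr0081747 and FBtr0081748 went down to the level of the random-sequence row. FBtr0081747 measured 1911 and 1787 at 0 h in control cells, 2136 and 1847 at 3 h, and 1426 and 1172 at 48 h. Its CP190 values were 496 and 451, 473 and 454, and 440 and 515, all within 1.5-fold of the random-sequence row. At that level background adds to the signal, and only a bound on the fold can be given. With CP190 values set to 1.5 times the random-sequence row of the same array, control cells were at least 2.94-fold higher at 0 h, at least 3.19-fold at 3 h and at least 2.09-fold at 48 h. The measured differences were -1.97, -2.10 and -1.44 (SE 0.12 each). FBtr0081748 had control values of 1892 and 1703 at 0 h and 1381 and 1160 at 48 h, and CP190 values of 442 and 468 and then 439 and 436. Its differences were -1.98, -1.87 and -1.53 (SE 0.11 each), with control cells at least 2.86-fold, 3.10-fold and 2.04-fold higher.

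**Figure D3:**
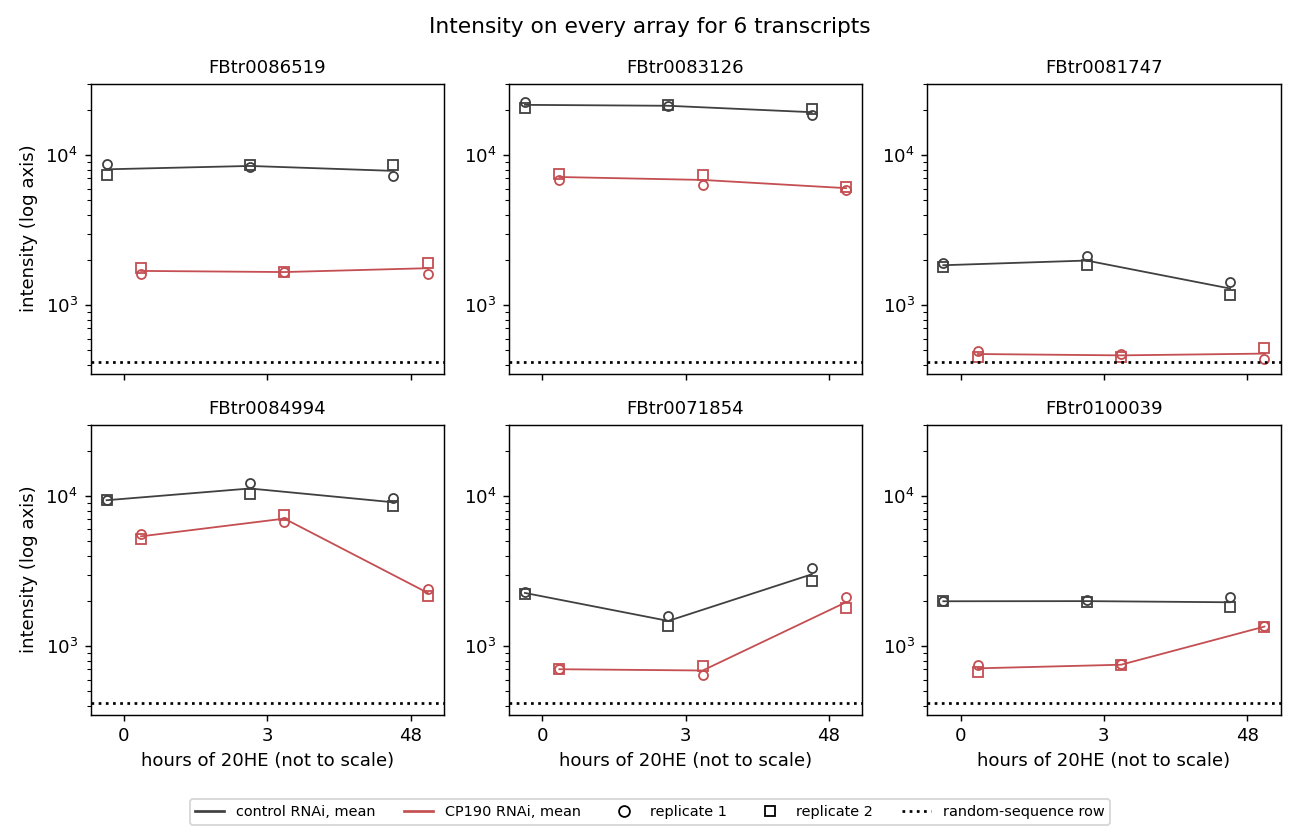
Intensity (log axis) of 6 transcripts on every array at 0, 3 and 48 h of 20HE. Circles are replicate 1, squares replicate 2, lines join group means (geometric), grey is control RNAi, red is CP190 RNAi, and the dotted line is the mean random-sequence row. FBtr0086519 and FBtr0083126 keep a constant distance between the arms, FBtr0081747 lies near the dotted line after CP190 RNAi, and the arms move apart for FBtr0084994 and together for FBtr0071854 and FBtr0100039 at 48 h.

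In all, 10 members had a CP190 array within 1.5-fold of the random-sequence row, 8 of them in all 3 CP190 groups and 5 on all 6 CP190 arrays. For these the measured ratio of control to CP190 cells at 0 h lay between 1.52 and 3.95, and the bounds between 1.27-fold and 2.94-fold. Only FBtr0082151 also had a control array there, replicate 1 at 3 h, with 635. Its other control values were 788 and 1102 at 0 h, 819 at 3 h, and 990 and 963 at 48 h, and its CP190 values were 444 to 562. FBtr0082180 had the lowest mean control intensity, with 755 and 847 at 0 h and 907 and 946 at 48 h, and 506 and 547 and then 533 and 666 after CP190 RNAi. The remaining 42 members, with no such array, had medians of -0.86, -0.83 and -0.82 at 0, 3 and 48 h. Across the 52, the control level and the mean knockdown difference, which share the control arrays, had r = -0.19 (rho = -0.18), a description only.

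Members were lowered by similar amounts at 0 and 3 h and by less similar amounts at 48 h. Across the 52 transcripts, the differences at 0 and 3 h, from different arrays, had r = 0.90 (rho = 0.86), and those at 0 and 48 h had r = 0.23 (rho = 0.091). All were chosen to lie at or below -0.5, and transcripts are not independent replicates. The strongest fall was at 0 h for 18 members, at 3 h for 9 and at 48 h for 25. The 3 differences of a member spanned 0.44 log2 units in the median. They spanned under 0.2 for 15 members, over 0.5 for 22 and over 1 for 5.

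The change of the knockdown difference from 0 to 48 h was then taken from the same fit over all transcripts; it equals the difference of the 48 h hormone responses between the arms. The rule bounded the differences at both times and so limits this contrast in part. Of the 52, 8 were past the adjusted p of 0.05, with the fall larger at 48 h for 6 (1.36% of all transcripts were called in that direction) and smaller for 2 (0.823%). The shares of all transcripts called were 2.18% without and 4.36% with the replicate block, which called 12 members. In the fit without the block, the other members ran from a change of -0.70 to 0.81 and were not called. FBtr0074961, at a measured -0.70, had a limma adjusted p of 0.164 without the block and 0.0158 with it. Its CP190 arrays at 0 h lay within 1.5-fold of the random-sequence row, so the size of its change is not known. From 0 to 3 h limma called 0 members and 0 of all transcripts, with 3 members and 403 transcripts at an unadjusted p under 0.05, and with the block 0 members and 4 transcripts (0.024%).

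Among the members called with no CP190 array near the random-sequence row, FBtr0084994 had the largest increase of the fall. Control intensities were 9393 and 9407 at 0 h, 12201 and 10384 at 3 h, and 9708 and 8547 at 48 h. CP190 intensities were 5634 and 5178, 6692 and 7509, and then 2391 and 2152. Control cells thus ended near their starting level while CP190 cells dropped at 48 h, and the arms do not overlap at any time. The knockdown difference went from -0.80 to -2.01, a change of -1.21 ± 0.15 (SE; limma adjusted p = 0.00143, 7.84e-05 to 0.00865 over 18 alternatives). It was -1.28 in replicate 1 and -1.13 in replicate 2.

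FBtr0085000 and FBtr0085001 followed the same course. FBtr0085000 measured 8820 and 8448 in control cells at 0 h and 8554 and 7992 at 48 h, and 5240 and 5252, then 2381 and 2136, in CP190 cells. Its change was -1.16 ± 0.14 (adjusted p = 0.00117 by limma). FBtr0085001 went from 8971 and 8551 to 4221 and 3427 in CP190 cells, with 14707 and 15898 and then 15688 and 13829 in control cells, a change of -1.15 ± 0.17 (limma adjusted p = 0.00423). Over the 12 arrays the log2 profiles of these transcripts correlated by r = 0.996 to 0.997. The other 3 members with a larger fall at 48 h had measured changes of -0.87, -0.74 and -0.72. The last was FBtr0070558, with all 6 CP190 arrays within 1.5-fold of the random-sequence row, so its differences are bounds and the size of its change is not known. It measured 799 and 815 at 0 h and 1220 and 1250 at 48 h in control cells, and 498 and 536 and then 497 and 463 in CP190 cells. The call at -0.74 was lost without control 0 h, control 48 h, CP190 0 h or CP190 48 h replicate 2 (adjusted p up to 0.0834).

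**Figure D4:**
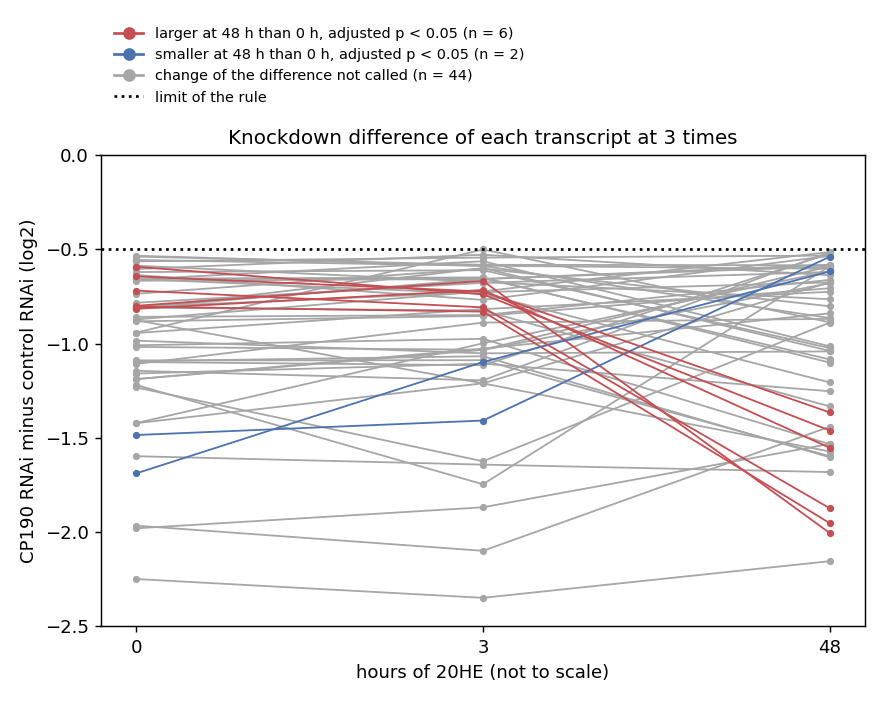
Knockdown difference (log2, CP190 RNAi minus control RNAi) of each of the 52 transcripts at 0, 3 and 48 h; the time axis is not to scale, and the dotted line is the limit of -0.5. Red lines are the 6 transcripts whose fall was larger at 48 h than at 0 h and blue lines the 2 whose fall was smaller (limma adjusted p under 0.05); 44 grey lines were not called. FBtr0070558, one of the red lines, has only bounds on its differences. Most lines run level from 0 to 3 h and spread at 48 h.

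FBtr0071854 and FBtr0100039 went the other way. FBtr0071854 measured 2296 and 2235 at 0 h, 1601 and 1358 at 3 h, and 3345 and 2716 at 48 h in control cells. In CP190 cells it measured 701 and 704, 646 and 735, and 2136 and 1809. The CP190 arrays stayed below the control arrays at each time while the distance shrank, from -1.69 through -1.10 to -0.62. The change from 0 to 48 h was 1.07 ± 0.17 (limma adjusted p = 0.0078, 6.51e-04 to 0.0394 over 18 alternatives). It came with a hormone change of 1.48 ± 0.12 in CP190 cells and 0.41 ± 0.12 in control cells.

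FBtr0100039 was level in control cells, with 1987 and 2001 at 0 h, 2034 and 1963 at 3 h, and 2127 and 1813 at 48 h. In CP190 cells it measured 749 and 678, 758 and 748, and 1367 and 1336. Only the CP190 values at 48 h stand apart from those of the other times in their arm. Its knockdown difference went from -1.49 to -0.54, a change of 0.95 ± 0.13 (limma adjusted p = 0.00229, with a hormone change of 0.92 ± 0.090 in CP190 and -0.02 in control cells).

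The hormone responses of the members were small at 3 h, as the rule required. In control cells they ran from -0.62 to 0.51 (median -0.0084), and in CP190 cells from -0.35 to 0.39 (median 0.022). FBtr0071854 was the 1 member called at 3 h in control cells, lower by 0.62 ± 0.12 (1.31% of all transcripts were called in either direction). That call was lost with quantile normalisation, with only the arrays compared and without any array of control 0 h, control 3 h or CP190 0 h (limma adjusted p up to 0.33), and the replicate block called 3 members (2.32%). In CP190 cells limma called 0 members (0.703% of all transcripts), with 3 members and 857 transcripts (5.15%) at an unadjusted p under 0.05, and 0 members with the block (1.38%).

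At 48 h the changes ran from -1.80 to 1.44 in control cells (median 0.085) and from -1.27 to 1.68 in CP190 cells (median 0.0080). In control cells 14 members were called higher and 7 lower, where 13.1% and 15.3% of all transcripts were. In CP190 cells 14 were called higher and 11 lower (12.6% and 13.9%). With the replicate block the counts were 18 and 10 in control cells (15.8% and 20.2% of all transcripts) and 18 and 12 in CP190 cells (15.5% and 19.2%). The split depended on the scaling. Over all transcripts, 2173 were called higher and 2543 lower in control cells, and 1767 and 3894 with each array centred on its median. In CP190 cells 2096 and 2314 became 1744 and 3238. Centring gave 13 members higher and 10 lower in control cells and 13 and 13 in CP190 cells. In control cells the transcripts called lower numbered 1476 without control 48 h replicate 1, 1639 without its replicate 2 and 1627 without control 0 h replicate 2, and the members called lower were 6, 4 and 10. In CP190 cells, leaving out replicate 2 of the CP190 0 h group gave 1308 transcripts lower. Leaving out replicate 1 of the 48 h group gave 1358, with 10 members lower in both cases.

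The rule limited the mean of both arms, so these counts describe what it let through. By the calls, 10 members rose in both arms (9.38% of all transcripts), 4 fell in both (9.98%) and 20 were called in neither (64.6%). None was called in opposite directions (0.0301% and 0.0902% of all transcripts for the 2 orders). A further 4 were called higher (3.59%) and 3 lower (5.28%) in control cells alone, and 4 higher (3.19%) and 7 lower (3.84%) in CP190 cells alone. With the block, 2 members were called higher in control and lower in CP190 cells (0.234%). Other than for the 8 above, limma without the block did not call a difference of the 48 h hormone change between the arms. With the block it called 12 members.

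**Figure D5:**
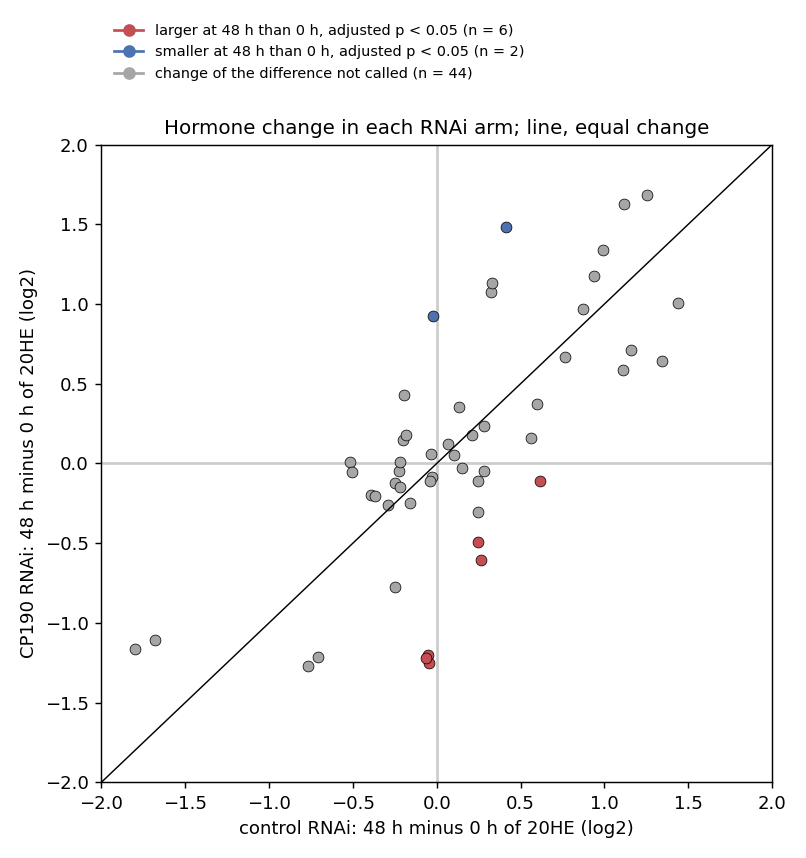
Hormone change from 0 to 48 h (log2) of each of the 52 transcripts in control RNAi cells (horizontal axis) and CP190 RNAi cells (vertical axis), with a line of equal change. Points below the line have a larger knockdown difference at 48 h than at 0 h and points above it a smaller one; red (6) and blue (2) points are those called by limma. Points lie in the upper right for transcripts that rose in both arms and in the lower left for those that fell in both.

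Among the members that rose in both arms, FBtr0086625 had the largest change in control cells. It went from 10830 and 9254 at 0 h to 25966 and 28319 at 48 h in control cells, and from 6178 and 6545 to 11739 and 13937 in CP190 cells. Those are rises of 1.44 ± 0.10 and 1.01 ± 0.10, and the CP190 values at 48 h lay above those of untreated control cells, at 47.2% of the 48 h control. FBtr0074961 rose in control cells from 883 and 1109 to 2121 and 2966 (1.34 ± 0.15). In CP190 cells it went from 549 and 529, within 1.5-fold of the random-sequence row, to 808 and 880.

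FBtr0100042 and FBtr0100043 had the largest measured rises of the members in CP190 cells, at 1.63 ± 0.13 and 1.68 ± 0.12, with 1.12 and 1.25 in control cells. FBtr0100043 went from 1304 and 1087 to 4308 and 3383 in CP190 cells, and from 2390 and 2430 to 5966 and 5529 in control cells. Its knockdown difference was -1.02, -1.03 and -0.59 at the 3 times, and the change of 0.43 was not called (limma adjusted p = 0.395).

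FBtr0075402 and FBtr0075403 fell most of the members with the hormone in control cells. FBtr0075403 measured 9973 and 10988 at 0 h, 10300 and 11360 at 3 h, and 3308 and 2742 at 48 h in control cells. In CP190 cells it measured 5625 and 3988, 5209 and 4285, and 2170 and 2049. Both arms fell, by 1.80 ± 0.16 in control and by 1.17 ± 0.16 in CP190 cells. Its knockdown differences were -1.14, -1.20 and -0.51, with -1.10, -1.11 and -0.52 for FBtr0075402. The change from 0 to 48 h was not called for either (limma adjusted p = 0.273 for FBtr0075403 and 0.373 for FBtr0075402).

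FBtr0073127 also fell in both arms, and more in CP190 cells. It went from 4824 and 4048 to 2684 and 2518 in control cells, and from 1988 and 2170 to 842 and 877 in CP190 cells, which is a fall of 0.77 ± 0.10 and of 1.27 ± 0.10. Its knockdown difference was -1.09 at 0 and 3 h and -1.60 at 48 h, and this change was not called (limma adjusted p = 0.126).

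The replicates differed most for FBtr0082408 and FBtr0072460. FBtr0082408 measured 3306 and 2653 in control cells at 0 h against 870 and 1403 in CP190 cells, so replicate 1 gave the larger distance. At 48 h it measured 3598 and 3828 against 2219 and 2433. FBtr0072460 had mean differences of -1.45 in replicate 1 and -0.90 in replicate 2. Its control arrays at 3 h, with 1892 and 1118, were the ones that differed most, while the CP190 arrays there, at 696 and 787, lay below both.

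Some members resemble each other closely. The 52 identifiers include 9 pairs of consecutive numbers, which hold 18 members. The log2 profiles of these pairs over the 12 arrays correlated by r = 0.944 to 0.999 (median 0.994), beside a median of 0.770 over the other member pairs, all of which share the arrays and the fall that chose them. Among all 1326 member pairs, 91 without consecutive numbers also had an r above the lowest of the consecutive pairs. An r above 0.944 was thus not confined to consecutive numbers, although the consecutive pairs were more alike in the median. Within a consecutive pair the knockdown differences at the 3 times lay at most 0.50 apart, in the median of pairs 0.16, beside 0.65 over the other pairs. None had identical values. Whether such a pair stands for 1 gene or for shared probes is not given in the sources used here, so the number of genes behind the 52 transcripts is unknown; with each pair taken once there would be 43.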

How the data were processed

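RNA from 12 samples, all titled Kc (the extraction protocol also names Mbn2 cells), was Cy3-labelled and run on 1-colour NimbleGen arrays, per the labels' protocols. The authors deposited 1 table of linear intensity values; RMA is the tool that the submitters' processing notes name, with its version, the annotation release and the build not given in the sources used here. Deposited intensities were converted to log2, with no pseudocount or filter. The random-sequence row was left out of all fits.

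The rule's limits are given in the text. The limma package (3.58.1, under R 4.3.3) fitted 1 mean per group to all 12 arrays (lmFit, eBayes), with two-sided p-values adjusted over 16637 transcripts within each comparison, and was tested on simulated data. Errors are limma SE. With 2 arrays a group, their number limits the precision. Replicate differences correlated between groups by 0.147 to 0.608 over 15 pairs of groups, so the shared replicate numbers may pair the samples. What they share is not stated in the labels. The fit above has no replicate term, and SE and adjusted p come from it unless the replicate block is named. With the block, run as an alternative, more members were called. These were 12 in place of 8 for the change from 0 to 48 h, and 52 in place of 47 lower at 48 h.

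The members, lists and named-transcript rule (extremes of each quantity, at most 2 in each direction) were chosen with earlier results of these data known. Of 7 gene lists, 0 of 46 genes could be looked up. Alternatives were centring, quantile normalisation, a filter on dim transcripts, the replicate block, a trended robust prior, only the arrays compared, each array left out, other limits, and subtraction of the random-sequence row.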

Additional observations from a re-analysis of the deposited data

Results flagged for a closer look

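Between 0 and 48 h of 20HE, the knockdown difference changed past the threshold in the test of the difference itself for 8 of the 52 transcripts (limma adjusted p under 0.05, 2.18% of all transcripts). The rule bounded the differences at both times and so limits this contrast in part. The fall grew for FBtr0084994 (-1.21), FBtr0085000 (-1.16) and FBtr0085001 (-1.15). The log2 profiles of these transcripts correlated by r = 0.996 to 0.997, and whether they stand for separate genes is unknown. It shrank for FBtr0100039 (0.95) and FBtr0071854 (1.07). Each change had the same sign in both replicate numbers, but the calls were made on these same arrays, so nothing is read from that.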

How the results depend on the processing

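Limits of -0.4 and -0.6 chose 87 and 33 transcripts in place of 52; other settings of the rule gave 42 to 65, including 42 to 55 with 1 array left out, and 26 of the 52 were chosen in all 12 of those. With the random-sequence row subtracted, the medians became -1.24, -1.18 and -1.22 at 0, 3 and 48 h, larger by construction. Centring each array on its median gave -0.89 at 0 h. At 48 h, 31 to 48 members were called lower with 1 array left out, in place of 47. The single 3 h call in control cells became 0 with quantile normalisation or only the arrays compared, 3 with the replicate block, and 0 to 1 with 1 array left out; the cause was not tested. The 8 changed knockdown differences became 12 with the replicate block, where 4.36% of all transcripts were called in place of 2.18%. With 1 array left out the member count changed little, while fewer of all transcripts were called each time. For the named members and those with a called change of the knockdown difference, no direction of a called value reversed under the alternatives run. Directions of the other members were not checked in this way. With 2 arrays a group, and 10 members near the random-sequence row, the sizes of small changes are the least certain.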
